A study of Homo sapiens with 6 samples.

Results

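Cholesterol and fatty acid synthesis genes were followed on 6 expression arrays of HT29 cells, a long-established line grown from a human colon adenocarcinoma. The 28 genes were a fixed set of pathway enzymes and regulators, and a gene was used where the platform annotation gave at least 1 probe set with that symbol alone, at its brightest such probe set. This held for 25 of the 28, out of 18417 genes named in the same way, and all 25 lay above the level at which genes were tested. FDFT1, ACSL3 and HSD17B7 had no probe set with 1 symbol and are not analysed here as members. Per the labels, 3 arrays came from HT29 cells with a control construct and 3 from HT29 cells with a construct that expresses laminin α1, 1 of the chains from which laminins of the basement membrane are built, all grown for 7 days. The design text names 3 separate culture passages per group, and no source used here gives the sequence or promoter of the construct or the number of cell clones.

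The mevalonate pathway turns acetyl-CoA into isoprenoid units and then into squalene, and the sterol branch folds and trims squalene into cholesterol. Fatty acid synthesis draws on the same cytosolic acetyl-CoA, which ACLY makes from citrate. Both pathways are driven by the SREBP transcription factors, which are held in the endoplasmic reticulum by INSIG proteins when sterols are plentiful and are released to the nucleus when sterols fall. The genes of sterol synthesis therefore often move together in cultured cells, with medium, density and lipid supply. Binding sites of SREBP in the promoters of its target genes commonly lie beside sites for the factors NF-Y and Sp1.

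Promoters are shown for the regulator of sterol synthesis SREBF2 and for INSIG1, STARD4 and FADS1, whose differences between the groups were among the widest of the 25. Each runs from 250 bases before the gene's start to 50 bases after it, from RefSeq on GRCh38.p14, 5′ to 3′ on the strand of the gene. Capitals mark matches on either strand to the sterol regulatory element core TCACNCCAC and to the NF-Y box CCAAT.
SREBF2 (chr22:41832855-41833154, + strand): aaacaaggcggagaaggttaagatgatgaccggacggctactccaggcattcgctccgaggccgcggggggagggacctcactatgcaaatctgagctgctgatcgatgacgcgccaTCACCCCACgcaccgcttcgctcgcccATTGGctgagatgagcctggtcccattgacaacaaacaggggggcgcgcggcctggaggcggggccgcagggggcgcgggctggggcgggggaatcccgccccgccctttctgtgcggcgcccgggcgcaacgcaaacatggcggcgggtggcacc
INSIG1 (chr7:155297628-155297927, + strand): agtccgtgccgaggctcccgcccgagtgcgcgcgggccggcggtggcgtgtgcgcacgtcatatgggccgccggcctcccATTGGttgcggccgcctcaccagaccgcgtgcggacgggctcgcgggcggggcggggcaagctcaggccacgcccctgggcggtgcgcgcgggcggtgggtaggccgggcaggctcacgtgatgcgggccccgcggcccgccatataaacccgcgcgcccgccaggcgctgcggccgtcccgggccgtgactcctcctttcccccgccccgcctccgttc
STARD4 (chr5:111512486-111512785, - strand): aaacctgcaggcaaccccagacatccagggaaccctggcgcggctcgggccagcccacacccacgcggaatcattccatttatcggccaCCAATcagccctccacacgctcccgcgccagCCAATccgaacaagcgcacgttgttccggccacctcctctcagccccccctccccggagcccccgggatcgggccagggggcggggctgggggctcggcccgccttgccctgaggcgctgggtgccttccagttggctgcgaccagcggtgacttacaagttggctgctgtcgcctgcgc
FADS1 (chr11:61816954-61817253, - strand): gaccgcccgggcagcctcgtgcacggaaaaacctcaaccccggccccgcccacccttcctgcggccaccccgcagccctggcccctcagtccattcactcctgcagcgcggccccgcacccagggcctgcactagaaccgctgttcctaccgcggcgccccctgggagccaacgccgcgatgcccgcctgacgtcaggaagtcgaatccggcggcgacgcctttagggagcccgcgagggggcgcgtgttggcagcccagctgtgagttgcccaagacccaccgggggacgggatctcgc

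RefSeq promoters were matched for 23 of the 25 genes, the others being SQLE and FASN. The core TCACNCCAC was found in 1 of the 23, SREBF2, where it begins at position -133 from the start and the NF-Y box at -106. It was found in 1.15% of all 27305 promoters of the same length and in 1.03% of the promoters of genes tested on these arrays. The NF-Y box CCAAT lay in 14 of the 23 promoters (60.9%), against 35.7% of all promoters and 35.7% of those of genes tested. The Sp1 box GGGCGG lay in 20 of the 23 (87.0%), against 44.6% of all promoters and 68.0% of those of genes tested. Both strands were searched, and motifs were counted separately where they overlapped. These matches describe the letters in a window and no binding. Only these exact letters were searched for, so a promoter without a match is not shown to lack a binding site.

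All values below are the authors' deposited log2 expression values, and a difference is the laminin α1 mean minus the control mean, so that 1 unit is a doubling. The 95% intervals and adjusted p values come from limma, fitted across all 13812 genes tested. For LAMA1, the gene of the chain itself, the difference was 0.09 (adjusted p = 0.535, 95% interval -0.05 to 0.24). Whether the construct carries the sequence that the LAMA1 probes read is unknown here, so LAMA1 is no check of the labels. Arrays of 1 group correlated at 0.991 to 0.998 across genes, which are not independent replicates, and arrays of different groups at 0.983 to 0.991. Of 10 colon epithelial markers all 10 were tested, and 2 were lower in the laminin α1 arrays, against 2.59% of all genes tested. These were KRT20 (difference -0.35, adjusted p = 0.0086 by limma) and LGALS4 (difference -0.31, adjusted p = 0.024 by limma). The mean of the colon epithelial list ran from 10.7 to 10.8 over the control arrays and from 10.6 to 10.7 over the laminin α1 arrays. Its part in the results below was not tested. Markers of adipocytes, hepatocytes, fibroblasts and of endothelial and blood cells had list means between 5.37 and 5.75 in every array. Above the level filter of 5.50 lay 4 of 6 adipocyte, 3 of 6 hepatocyte, 5 of 7 fibroblast and 2 of 6 endothelial and blood markers, the brightest of each list being PLIN4 (6.71 in control), APOH (9.45), COL1A1 (7.34) and CD14 (6.93). FABP4, ALB, DCN and PTPRC lay below it. Values are from whole cultures, in which fewer cells with a transcript and less of it per cell cannot be told apart.

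None of the 25 genes passed the threshold of an adjusted p of 0.05 in limma, in either direction, while 5.29% of all genes tested did. At an unadjusted p under 0.05 there were 3, CYP51A1, INSIG1 and FADS1, against 16.7% of all genes tested. The differences ran from -0.30 for STARD4 to 0.23 for FADS1, with 15 above 0 and 10 below. Their median was 0.0046, against -0.01 over all genes tested, and the median size of a difference without its sign was 0.07, against 0.08. For 24 of the 25 the 95% interval lay within a 1.5-fold change either way, which held for 95.5% of all genes tested. The groups did not overlap for 5 of the 25, against 21.6% of all genes tested. SREBF1 and FADS1 lay higher in laminin α1, against 10.1% of all genes, and CYP51A1, INSIG1 and ACACA lower, against 11.5%. Without laminin α1 array 3 the groups did not overlap for 11 of the 25, against 40.7% of all genes in that setting. With arrays weighted by their quality, in a fit whose weights did not converge, these 5 genes passed the threshold, and so did 34.0% of all genes tested. With the array number added to the fit as a block, STARD4 alone of the 25 passed (adjusted p = 0.0206 by limma), against 11.6% of all genes tested.

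**Figure D1:**
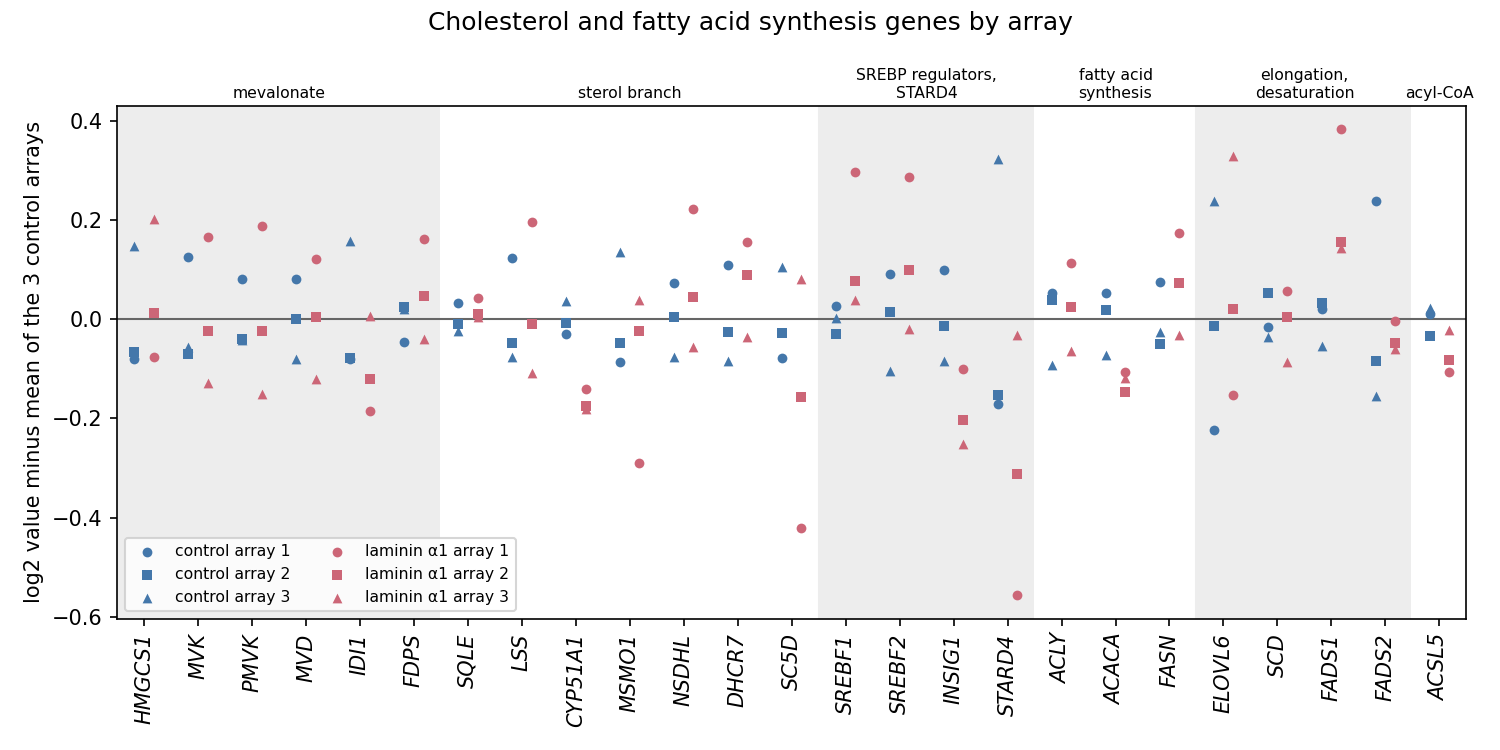
Each point is 1 array, plotted as its log2 value minus the mean of the 3 control arrays (y axis) for each of the 25 genes (x axis, grouped by role); blue is control, red is laminin α1, and the symbol gives the array number. Red and blue points interleave for 20 of the 25 genes and are apart for CYP51A1, SREBF1, INSIG1, ACACA and FADS1.

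The 6 measured enzymes of the mevalonate pathway had differences from -0.10 to 0.06, 0 of 6 past the threshold, and the groups overlapped for all 6. HMGCS1, which condenses acetyl units at the head of the pathway, had 9.37, 9.39 and 9.60 in control and 9.38, 9.47 and 9.65 in laminin α1. Its difference was 0.05 (95% interval -0.16 to 0.25, adjusted p = 0.863), and the third array was the highest of each group. MVK, the kinase that first phosphorylates mevalonate, had 7.85, 7.65 and 7.67 in control and 7.89, 7.70 and 7.60 in laminin α1. In both groups the first array was the highest for MVK, and the group means of 7.72 and 7.73 nearly coincided.

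PMVK, the second kinase of the pathway, had 7.18, 7.06 and 7.06 in control and 7.29, 7.08 and 6.95 in laminin α1, so that the laminin α1 arrays enclosed the control arrays. MVD, which decarboxylates the product to isopentenyl diphosphate, had 8.22, 8.14 and 8.06 in control and 8.26, 8.14 and 8.02 in laminin α1. Its difference, 0.0013 (95% interval -0.18 to 0.18), was the nearest to 0 of the 25. IDI1, which isomerises isopentenyl diphosphate, had 10.43, 10.43 and 10.67 in control and 10.32, 10.39 and 10.51 in laminin α1. With a difference of -0.10 (95% interval -0.29 to 0.09), IDI1 was the lowest of the 6, and its groups overlapped only through laminin α1 array 3. FDPS, the farnesyl diphosphate synthase, had 8.80, 8.87 and 8.86 in control and 9.00, 8.89 and 8.80 in laminin α1, with a difference of 0.06 (95% interval -0.10 to 0.21). Other probe sets of the platform are annotated to FDPS together with its pseudogene FDPSP2 and were not used for these values. Whether the probe set used also reads the pseudogene was not tested.

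In the sterol branch 0 of 7 measured enzymes passed the threshold, with 4 differences above 0 and 3 below, and CYP51A1 was the only one of the 7 whose groups did not overlap. CYP51A1, the lanosterol demethylase, had 10.56, 10.58 and 10.63 in control and 10.45, 10.42 and 10.41 in laminin α1. All 3 laminin α1 arrays lay below all control arrays, with a difference of -0.17 (SE 0.06, 95% interval -0.30 to -0.03, adjusted p = 0.186). A dimmer probe set of CYP51A1 had 10.09, 10.17 and 10.15 in control and 10.13, 10.05 and 10.01 in laminin α1, where the groups overlapped and the difference was -0.07. SQLE, the squalene epoxidase that limits the rate of the branch, had 11.91, 11.87 and 11.85 in control and 11.92, 11.89 and 11.88 in laminin α1. It varied least of the 25 within groups, with an SD of 0.03, and its interval of -0.11 to 0.15 around a difference of 0.02 leaves room for a change of at most 1.11-fold upward.

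LSS, which folds squalene epoxide into lanosterol, had 7.94, 7.77 and 7.74 in control and 8.01, 7.80 and 7.71 in laminin α1, with overlapping groups and a difference of 0.03. MSMO1, the sterol methyl oxidase, had 10.49, 10.53 and 10.71 in control and 10.29, 10.55 and 10.61 in laminin α1. Its difference of -0.09 (95% interval -0.31 to 0.13) rested on laminin α1 array 1, without which it was 0.0071. NSDHL, a sterol dehydrogenase, had 10.63, 10.56 and 10.48 in control and 10.78, 10.60 and 10.50 in laminin α1. DHCR7, which reduces the last double bond on the way to cholesterol, had 11.19, 11.06 and 11.00 in control and 11.24, 11.17 and 11.05 in laminin α1. NSDHL and DHCR7 both had a difference of 0.07 and overlapping groups, and in both the first array was the highest of its group.

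SC5D, the sterol desaturase, had 10.20, 10.25 and 10.38 in control and 9.86, 10.12 and 10.36 in laminin α1. Laminin α1 array 1 lay far below the rest for SC5D, array 2 lay just below every control array, and array 3 fell within the control range. The difference was -0.17 with a wide interval of -0.42 to 0.09 (adjusted p = 0.541), and without laminin α1 array 1 it was -0.04.

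**Figure D2:**
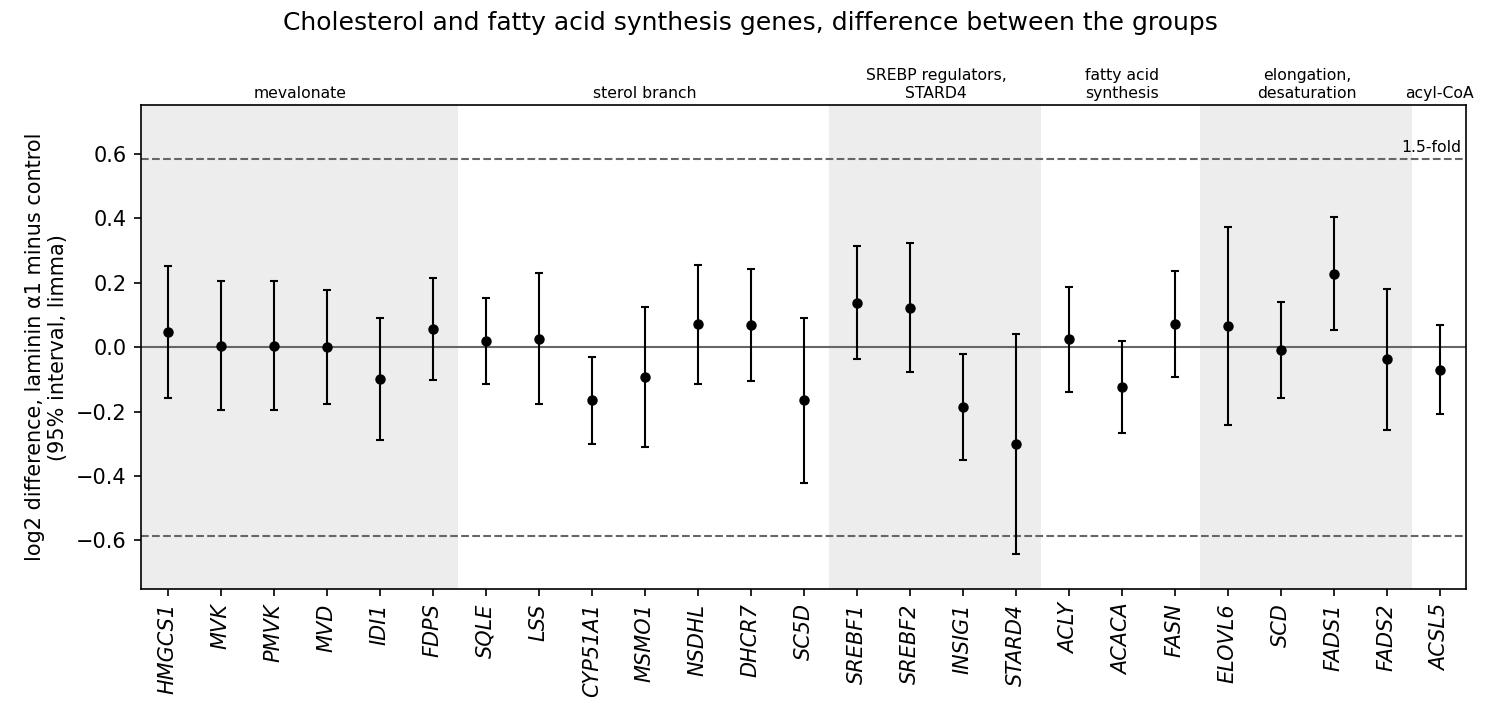
Points are log2 differences, laminin α1 minus control (y axis), for the 25 genes (x axis, grouped by role), with 95% intervals from limma as bars; dashed lines mark a 1.5-fold change. The intervals of CYP51A1, INSIG1 and FADS1 leave out 0, that of STARD4 alone crosses the 1.5-fold line, and no gene passed after adjustment.

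Of the SREBP regulators and the sterol carrier STARD4, 0 of 4 passed the threshold. The median size of their differences was 0.16, beside 0.03 in the mevalonate pathway and 0.07 in the sterol branch, though CYP51A1 and SC5D of that branch lay further from 0 than SREBF1 and SREBF2. SREBF1, whose product drives fatty acid genes, had 8.38, 8.33 and 8.36 in control and 8.65, 8.44 and 8.40 in laminin α1. The control arrays lay close together and all below the laminin α1 arrays, of which array 1 stood highest. The difference was 0.14 (SE 0.08, 95% interval -0.04 to 0.31, adjusted p = 0.437), and 0.06 without laminin α1 array 1. SREBF2, whose product drives sterol genes, had 8.72, 8.65 and 8.53 in control and 8.92, 8.73 and 8.61 in laminin α1. Its groups overlapped, at a difference of 0.12 (95% interval -0.08 to 0.32, adjusted p = 0.570), which was 0.04 without laminin α1 array 1, 0.07 without control array 3 and 0.19 without laminin α1 array 3.

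INSIG1, itself a target of SREBP and the retention protein of the SREBP escort, had 9.39, 9.28 and 9.21 in control and 9.20, 9.09 and 9.04 in laminin α1. Every laminin α1 array lay below every control array, by a small margin between control array 3 and laminin α1 array 1. The difference was -0.18 (SE 0.07, 95% interval -0.35 to -0.02, adjusted p = 0.228), opposite in sign to those of SREBF1 and SREBF2. STARD4, a carrier that moves cholesterol between membranes and is a sterol-regulated gene, had 6.92, 6.93 and 7.41 in control and 6.53, 6.77 and 7.05 in laminin α1. Laminin α1 array 3 lay above control arrays 1 and 2, so the groups overlapped. STARD4 had the widest difference of the 25, -0.30 (SE 0.15, 95% interval -0.64 to 0.04, adjusted p = 0.370), and the largest SD within groups, 0.27. Without control array 3 it was -0.14 and without laminin α1 array 1 it was -0.17, and INSIG1, at -0.23 in both settings, then lay lower than STARD4. On the linear scale its interval ran from 0.641 to 1.03 times the control level.

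Of the enzymes that make palmitate, 0 of 3 passed the threshold. ACLY, which supplies cytosolic acetyl-CoA, had 10.30, 10.29 and 10.16 in control and 10.36, 10.27 and 10.19 in laminin α1, with a difference of 0.02. ACACA, the carboxylase that makes malonyl-CoA and sets the rate of synthesis, had 10.33, 10.29 and 10.20 in control and 10.16, 10.12 and 10.15 in laminin α1. The ACACA groups did not overlap, and the difference was -0.12 (SE 0.06, 95% interval -0.27 to 0.02, adjusted p = 0.372). FASN, the synthase itself, had 9.63, 9.51 and 9.53 in control and 9.73, 9.63 and 9.53 in laminin α1. Its groups overlapped, at a difference of 0.07 (95% interval -0.09 to 0.24).

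Elongation and desaturation had 0 of 4 past the threshold. FADS1, the delta-5 desaturase of polyunsaturated fatty acids, had 6.33, 6.35 and 6.26 in control and 6.70, 6.47 and 6.46 in laminin α1. All laminin α1 arrays lay above all control arrays, array 1 furthest, with a difference of 0.23 (SE 0.08, 95% interval 0.05 to 0.40, adjusted p = 0.159), the highest of the 25, which was 0.15 without laminin α1 array 1. FADS2, its neighbour on chromosome 11 and the desaturase before it in the same pathway, had 5.97, 5.65 and 5.58 in control and 5.73, 5.69 and 5.67 in laminin α1. Control array 1 stood above the rest for FADS2, all arrays lay close to the level filter of 5.50, and the difference was -0.04 (95% interval -0.26 to 0.18).

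SCD, which puts the first double bond into stearate, had 12.07, 12.14 and 12.05 in control and 12.14, 12.09 and 12.00 in laminin α1, overlapping groups with a difference of -0.0087 (95% interval -0.16 to 0.14). ELOVL6, which lengthens palmitate, had 9.12, 9.33 and 9.58 in control and 9.19, 9.36 and 9.67 in laminin α1. The spread of ELOVL6 within groups, an SD of 0.24, exceeded its difference of 0.07 between them. ACSL5, an acyl-CoA synthetase of the intestine, had 11.80, 11.76 and 11.81 in control and 11.68, 11.71 and 11.77 in laminin α1, with a difference of -0.07 (95% interval -0.21 to 0.07).

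Within each group the arrays of these genes did not scatter alike. The median SD within groups was 0.10, against 0.09 over all genes tested. For 6 of the 25 genes, HMGCS1, IDI1, MSMO1, SC5D, STARD4 and ELOVL6, array 1 was the lowest and array 3 the highest of the group in control and in laminin α1 alike. For 10, namely PMVK, MVD, SQLE, LSS, NSDHL, DHCR7, SREBF2, INSIG1, ACLY and FADS2, array 3 was the lowest and array 1 the highest in both groups. Over all genes tested, these orders held in turn for 9.95% and 15.9%. Together 16 of 25 had their arrays in the same order by number in both groups, against 32.0% of all genes tested. The array number accounted for a median of 70.6% of a gene's sum of squares and the group for 16.4%, against 41.3% and 21.0% over all genes tested. The number divides the arrays into more classes than the group, so its share is expected to be larger without any effect. Each share is therefore to be read against that of all genes. For ELOVL6 the number accounted for 96.8% and for HMGCS1 for 93.8%, while for CYP51A1 the group accounted for 92.5%. The sets of 6 and 10 deviated in opposite directions. The mean over the 25 genes, taken against the control means, stayed between -0.03 and 0.02 in every array. Over all genes tested that mean stayed between -0.014 and 0.012, and in both cases the control arrays average to 0 by definition. The labels do not say what the numbers share between the groups, and this pattern was looked for after the values had been seen.

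**Figure D3:**
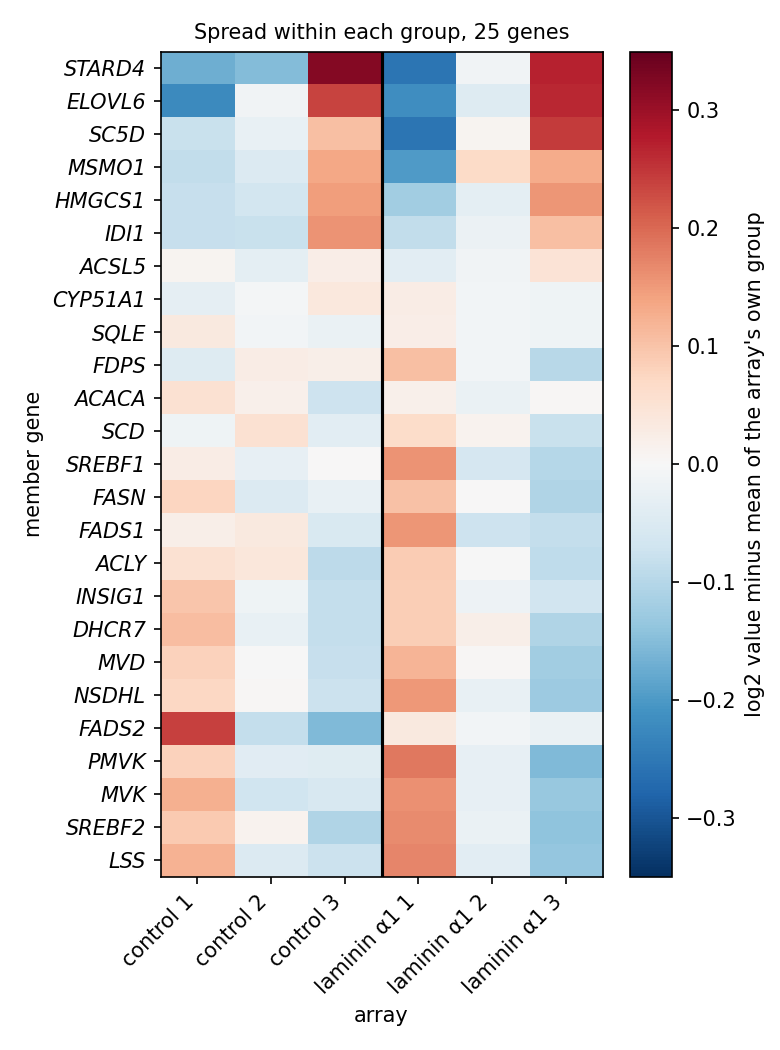
Colours give each array's log2 value minus the mean of its own group, for the 25 genes (rows) in the 3 control and 3 laminin α1 arrays (columns), so that differences between groups are removed. Rows are sorted by array 3 minus array 1: STARD4, ELOVL6, SC5D, MSMO1, HMGCS1 and IDI1 at the top are highest in array 3 of both groups, and the rows at the foot are highest in array 1.

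Other genes of lipid metabolism were taken as a list of 57, of which 45 were tested and 5 passed the threshold, 3 higher and 2 lower in laminin α1, against 2.69% and 2.59% of all genes tested. The median difference of the 45 was -0.02. ACSL1, a long-chain acyl-CoA synthetase, had 8.13, 8.02 and 8.04 in control and 7.68, 7.52 and 7.43 in laminin α1, and fell 1.44-fold (log2 difference -0.52, SE 0.08, adjusted p = 0.00301). SOAT1, which esterifies cholesterol for storage, had 5.94, 5.86 and 6.00 in control and 5.53, 5.41 and 5.34 in laminin α1. It fell by 0.50 on the log2 scale (SE 0.07, adjusted p = 0.00279), to a mean below the level filter of 5.50, so the size is uncertain.

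ACACB, the carboxylase at the mitochondrial surface whose malonyl-CoA restrains fatty acid oxidation, had 6.19, 6.11 and 6.13 in control and 6.64, 6.61 and 6.49 in laminin α1. It rose 1.35-fold (log2 difference 0.44, SE 0.07, adjusted p = 0.00405), while its cytosolic relative ACACA, above, had a difference of -0.12 that did not pass. ACSS1, a mitochondrial acetyl-CoA synthetase, had 7.87, 7.71 and 7.68 in control and 8.37, 8.17 and 8.09 in laminin α1, and rose 1.38-fold (SE 0.09 on the log2 scale, adjusted p = 0.0133). NR1H3, the sterol-sensing nuclear receptor LXR alpha, had 7.62, 7.59 and 7.56 in control and 8.00, 7.89 and 7.79 in laminin α1, and rose 1.23-fold (log2 difference 0.30, SE 0.07, adjusted p = 0.0349). The groups did not overlap for any of the 5, against 21.6% of all genes tested. This is no separate support, because the 5 were picked by p value on the same arrays. The call of NR1H3 was lost without any one of control arrays 1, 2 and 3 or laminin α1 arrays 1 and 2 (adjusted p from 0.0796 to 0.146), and that of ACSS1 without control array 2 (adjusted p = 0.0729) or 3 (adjusted p = 0.0532). With all probe sets tested separately, NR1H3 and ACSS1 also missed the threshold, at adjusted p = 0.0951 and 0.0622.

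**Figure D4:**
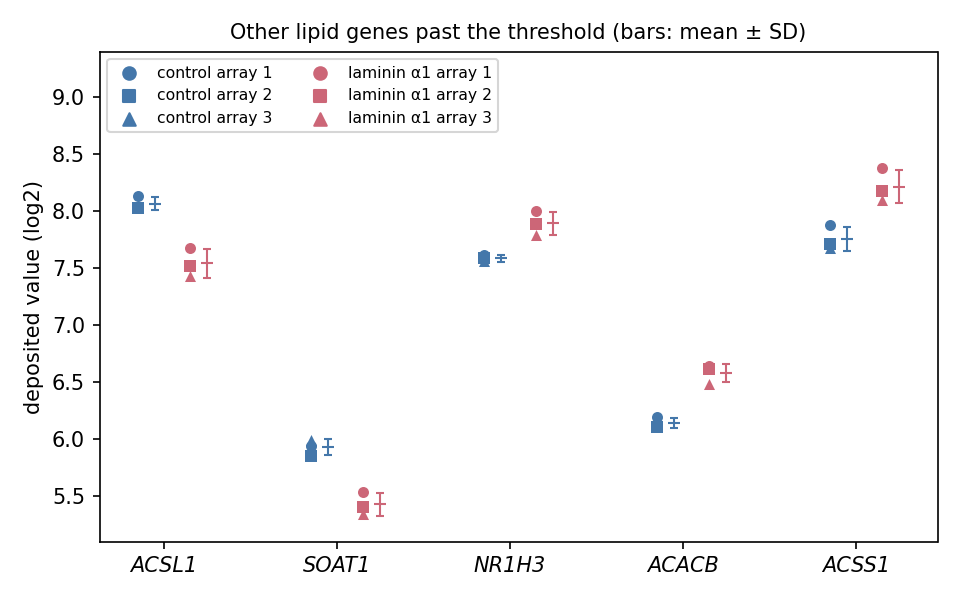
Deposited log2 values (y axis) of the 5 other lipid genes past the threshold (x axis), with each array as a point and bars for the mean ± SD of 3 arrays; blue is control and red is laminin α1. ACSL1 and SOAT1 are lower and NR1H3, ACACB and ACSS1 higher in all 3 laminin α1 arrays.

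Over all genes tested, 2.69% passed the threshold as higher and 2.59% as lower, and 16.7% had an unadjusted limma p under 0.05. By role, other sterol synthesis genes had 0 of 6 past the threshold of limma and 1 of 6 at an unadjusted p under 0.05. This was TM7SF2, a sterol reductase, which had a mean of 8.13 ± 0.11 in control and 8.40 ± 0.08 in laminin α1 (SD, n = 3) and a difference of 0.27 (adjusted p = 0.0780 by limma). The 4 genes that process SREBP had differences below 0 and 0 of 4 past the threshold, also unadjusted, with SCAP, the SREBP escort, at -0.11 (95% interval -0.29 to 0.08, adjusted p = 0.608). Genes of sterol uptake, storage and efflux had 1 of 13 higher, NR1H3, and 1 lower, SOAT1. Other fatty acid synthesis genes had 1 of 10 higher, ACACB, and 0 lower. Other elongases and desaturases had 0 of 9 past the threshold of limma and 3 at an unadjusted p under 0.05, against 16.7% of all genes. Of these 3, HACD3, a dehydratase of fatty acid elongation, had a mean of 10.95 ± 0.08 in control and 10.70 ± 0.07 in laminin α1 (SD, n = 3, adjusted p = 0.0720 by limma). Other acyl-CoA synthetases had 1 of 3 higher, ACSS1, and 1 lower, ACSL1. Whether these lists differ from the 25 synthesis genes was not tested.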

How the data were processed

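Total RNA of 6 cultures was hybridised to Affymetrix arrays, per the labels' protocols. The deposited table holds a log2 value for each probe set and array. Per the submitters' processing notes, the authors made them with RMA in Affymetrix Expression Console 1.1. RMA quantile-normalizes arrays, so a shift of all genes together is not visible. No further normalization was applied.

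Of 33297 probe sets, 19460 carried 1 symbol in the platform annotation and named 18417 genes, each represented by its brightest probe set. The 13812 genes whose mean exceeded the 25th percentile (log2 5.50) were tested in R 4.3.3 with limma 3.58.1 (lmFit, eBayes; laminin α1 minus control, no covariates). P values were adjusted over all of them by Benjamini-Hochberg, with a threshold of 0.05. The script was tested on simulated data. P values set the difference between the groups against the spread between 3 passages per group, which limma moderates over all genes tested. They do not cover the spread between separately made cell lines or clones, whose number is not given. The number of arrays limits the precision.

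The 28 genes and all lists were chosen with earlier results of these data known. All 28 were to be described, with every list gene past the threshold and the gene of smallest p in each list. Alternatives changed the level filter, the probe sets of a gene, the normalization (centring, quantiles again), the variance model (trended and robust), the weights of arrays, the threshold (0.01) and the arrays used, and added the replicate number as a block. The matches of promoters and the order of arrays within groups were added after the values had been seen.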

Additional observations from a re-analysis of the deposited data

How the results depend on the processing

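No alternative except array weights and the block brought a member past the threshold: with array weights 5 passed (CYP51A1, INSIG1, ACACA, FADS1 and SREBF1, adjusted p from 0.00449 to 0.0485 by limma), in a fit whose weights stopped short of convergence and in which 34.0% of all genes passed, against 5.29% in the fit as reported. The cause was not tested. Of the other lipid genes, 5 passed in the fit as reported and 3 with the filter at the 50th percentile, where 5.66% of all genes passed. SOAT1 and ACACB lay below that filter and were not tested there. With all 33297 probe sets tested separately 3 passed, against 1.83% of all probe sets. At a threshold of 0.01 there were 3, against 2.85% of all genes, and with array weights 20, against 34.0%. Leaving out each array in turn gave 3 to 6, where the share of all genes that passed ran from 2.95% to 8.79%. The arrays give no measure of background here.

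The replicate numbers were not taken to pair the arrays. Across genes, same-numbered arrays deviated from their group means with correlations of 0.390, 0.0216 and 0.530 for numbers 1, 2 and 3, and the arrays numbered 2 correlated best with an array of another number. Over the 25 members alone, same-numbered arrays correlated at 0.769, -0.0374 and 0.869. The fit as reported leaves this shared spread in its error. With the replicate block, 1 member passed, STARD4 (difference -0.30, adjusted p = 0.0206 by limma), and 12 other lipid genes, where the share of all genes that passed was 11.6%.

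Over the arrays left out in turn, the median difference of the members ran from -0.038 to 0.036 and the count whose groups did not overlap from 5 to 11, where the share of all genes ran from 27.2% to 40.7%. Several differences near 0 changed sign, with lowest and highest values of -0.031 and 0.12 for HMGCS1, -0.076 and 0.070 for MVK, -0.087 and 0.082 for PMVK, -0.058 and 0.062 for MVD, -0.058 and 0.094 for LSS, -0.16 and 0.0071 for MSMO1, and -0.0052 and 0.13 for NSDHL. For ACLY they were -0.021 and 0.069, for ELOVL6 -0.066 and 0.18, for SCD -0.041 and 0.030 and for FADS2 -0.12 and 0.082. Repeated quantile normalization gave -0.00066 for MVK, and array weights gave 0.0019 for MSMO1, -0.012 for ACLY and 0.027 for FADS2. None of these 11 genes was called in any setting listed here.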

Other observations

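Probe sets shared by several symbols stood outside the comparison of genes. The probe set annotated to HSD17B7, a sterol reductase, and its pseudogene HSD17B7P2 had 7.75, 7.80 and 7.84 in control and 7.78, 7.65 and 7.56 in laminin α1, with overlapping groups and a difference of -0.13 (adjusted p = 0.573 by limma over all probe sets). Of the probe sets annotated to FDPS and FDPSP2, the brighter had 7.63, 7.88 and 7.82 in control and 8.08, 7.94 and 7.85 in laminin α1. Its difference was 0.18 (adjusted p = 0.510 by limma over all probe sets), and the dimmer had 0.16, against 0.06 for the probe set annotated to FDPS alone.

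Among the 45 lipid genes tested outside the 25, the groups did not overlap for 8 that were higher and 7 that were lower in laminin α1, against 10.1% and 11.5% of all genes tested. Of the higher genes, TM7SF2, MYLIP, MID1IP1, ELOVL7 and FADS3 did not pass the threshold. Of the lower genes, LBR, ABCA1, ACSS2, SCD5 and HACD3 did not pass it. With the replicate block, TM7SF2, MID1IP1, ELOVL7 and FADS3 passed as higher and ABCA1, ACSS2 and HACD3 as lower. In that fit 11.6% of all genes tested passed, and MYLIP, LBR and SCD5 did not. The adjusted p values that follow are from the fit without the block. ACSS2 had a difference of -0.27, LBR -0.21 and SCD5 -0.12 (adjusted p = 0.101, 0.315 and 0.407 by limma). ELOVL7 had 0.21 (adjusted p = 0.151 by limma), and TM7SF2 and HACD3 are given above. MID1IP1, a regulator of acetyl-CoA carboxylase, had a difference of 0.31 (adjusted p = 0.0783 by limma). FADS3, a relative of FADS1 and FADS2, had 0.28 (adjusted p = 0.0921 by limma). ABCA1, the cholesterol exporter and a known target of NR1H3, had a difference of -0.24 (adjusted p = 0.0961 by limma) beside the higher NR1H3. MYLIP and ABCG1, further known targets of NR1H3, had differences of 0.13 and 0.15, with adjusted p = 0.387 and 0.496 by limma, and the groups of ABCG1 overlapped. Targets of NR1H3 were not collected as a list, so these genes do not stand for all of them.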
